A study of Mus musculus with 8 samples.

Results

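The genes described here are 39 genes of blood and lymphatic endothelium, the cells that line blood vessels, the heart chambers and lymph vessels. They were taken from a list of gene symbols chosen for known roles and matched by Ensembl identifier through GENCODE M21 (mouse build GRCm38). All 39 were found among the 141239 Ensembl and NONCODE features of the count tables, and all 39 passed the filter on low counts, as members of the 26717 features tested. They were split by role into 8 junction and surface proteins, 9 growth factor and guidance receptors, 4 transcription factors, 3 genes of an enzyme, a channel and a secreted protein (together 24 pan-endothelial genes), 5 arterial genes, 4 endocardial and venous genes and 6 lymphatic genes.

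Heart tissue of mice aged 2 weeks, of a strain labelled Mixed, was profiled by bulk RNA sequencing. Which heart chambers each library held was not tested, and levels of atrial markers are given below. All 8 libraries came from animals labelled as knockouts of Lmna, the gene of the nuclear envelope proteins lamin A and lamin C. The labels of 3 libraries (Lmna-/-, replicates 6, 7 and 8) name no vector, and they are called untreated. The other 5 (Lmna-/-:AAV9 Lmna WT, replicates 1 to 5) came from knockouts given wild-type LMNA by adeno-associated virus serotype 9, a gene delivery vector that reaches heart muscle, and they are called AAV9-LMNA. In the genotype text of 4 of these 5 libraries the vector is spelled AV9. The sources used here give no sex, litter, vector promoter, vector dose or library batch. No wild-type heart and no heart given a control vector was analysed here, so LMNA and the vector itself cannot be told apart. Nothing in the labels says that every library is a separate animal, and p-values therefore reflect variation among these libraries, some of which may be technical.

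Blood endothelial cells hold together through claudin and cadherin junctions, and their identity is kept by ETS and SOX family transcription factors. VEGF receptors, the angiopoietin receptors of the Tie family and Notch signalling guide vessel growth, and Notch is active in arterial endothelium. The endocardium lines the chambers, and lymphatic endothelium is specified by the transcription factor PROX1 and grows in response to VEGF-C through the receptor FLT4.

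Between 21439956 and 26492443 reads were counted on features per library. As a check of the labels, Lmna was at 46.4, 68.7 and 32.3 CPM (counts scaled to a common library size) in untreated replicates 6, 7 and 8, and at 393, 227, 325, 312 and 747 CPM in AAV9-LMNA replicates 1 to 5. Markers of heart muscle were abundant in all 8 libraries, at 47369 to 72827 CPM for the sum of 8 genes. Both untreated replicate 6 and untreated replicate 8 stood apart. Replicate 6 lay at -121.9 on a first principal component with 49.6% of the variance, against -19.6 for replicate 7, and held the least of the 8 fibroblast markers (1685 CPM, against 4526 to 7132 CPM in the other libraries) and of the 8 macrophage markers (172 CPM, against 290 to 646 CPM). It was also the lowest of all 8 libraries for 20 of the 39 endothelial genes. Replicate 8 lay at -69.0. Its sum over 5 atrial markers was 977 CPM, against 59.1 to 177 CPM in the other 7 libraries, and it was the highest untreated library for 26 of the 39 endothelial genes. For this reason each called member is also given against untreated replicate 7 alone, a fit that assumes that this lone library varies like the AAV9-LMNA group. Replicate 7 also differed from the other libraries. Of all 8 it had the lowest sum of heart muscle markers (47369 CPM) and the highest of macrophage markers (646 CPM). Library quality measures also separated the groups. Reads outside every feature were 24.7, 16.8 and 18.4% in untreated replicates 6, 7 and 8 and 12.1 to 12.8% in the AAV9-LMNA libraries, and NONCODE features took 4.11, 2.89 and 3.15% of counted reads against 2.07 to 2.27%. Every comparison below is between libraries that differ in these shares, and their part in the results was not tested.

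Endothelial RNA did not move as 1 block. In hearts given AAV9-LMNA, 8 of the 39 genes rose (Cldn5, Icam2, Esam, Tie1, Erg, Sox18, Egfl7 and Nrp1), 6 fell (Flt1, Ptprb, Eng, Nr2f2, Prox1 and Reln) and 25 were not called (quasi-likelihood test of edgeR at an adjusted p under 0.05 by Benjamini-Hochberg, the rule for a call throughout). The 8 that rose are 20.5% of the members, against a background of 18.4% of 13785 protein-coding genes, and the 6 that fell are 15.4%, against 6.07%. DESeq2 called 10 members higher (background 24.9%) and 4 lower (6.31%), and limma-voom 9 higher (19.6%) and 4 lower (5.77%). The same backgrounds apply to the counts by role group and by further list below. The median log2 fold change of the 39 genes, always AAV9-LMNA over untreated, was 0.24, beside 0.21 over coding genes. Both groups of libraries were fully separated, with no overlap between their values, for 7 genes that were higher (17.9% of members, against 23.1% of coding genes) and for 2 that were lower (5.13%, against 6.61%). In bulk tissue, fewer endothelial cells and less RNA per endothelial cell cannot be told apart.

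**Figure D1:**
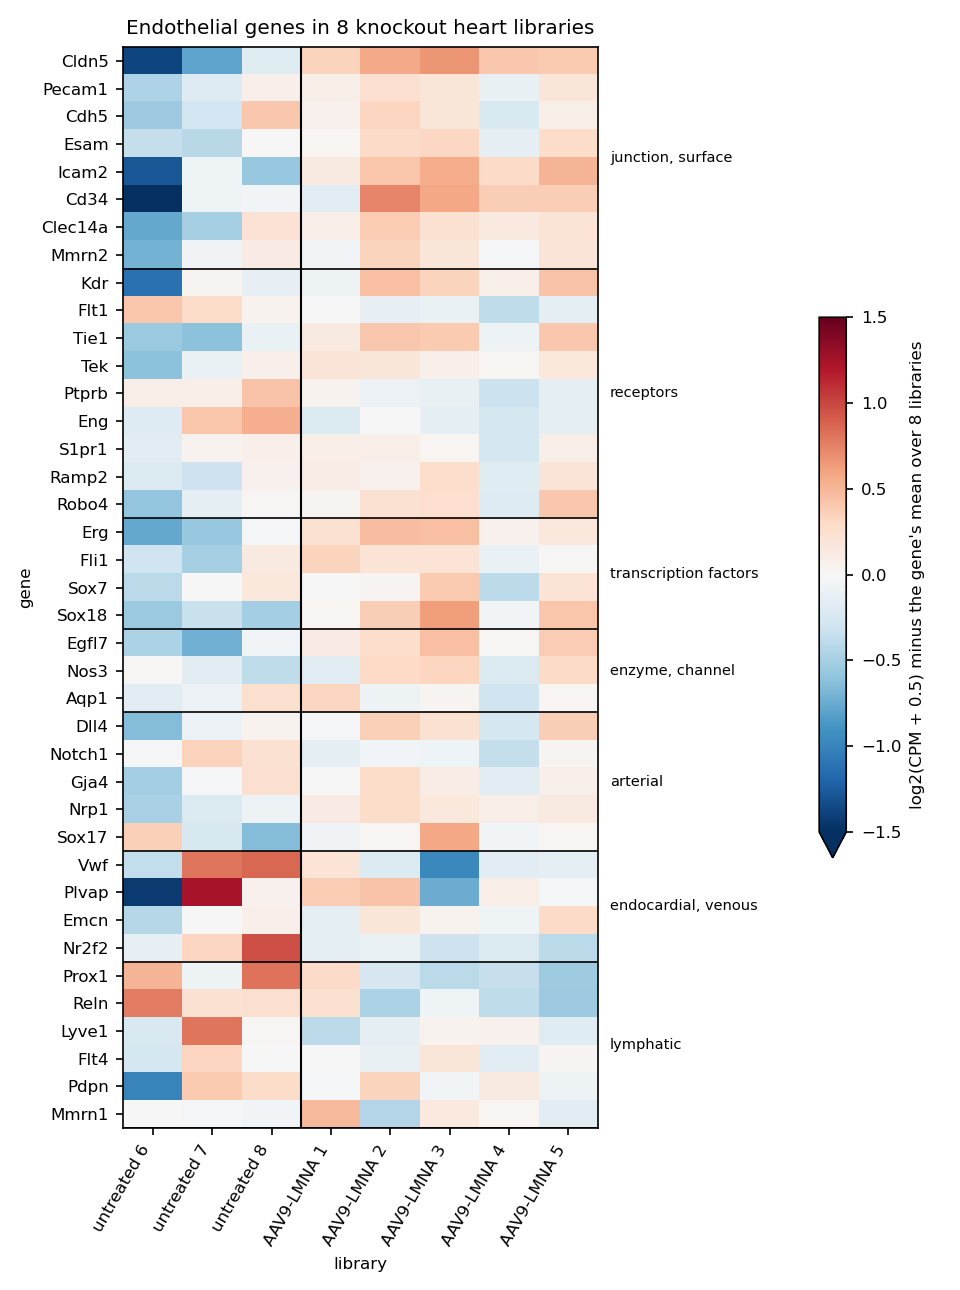
Each row is an endothelial gene and each column a heart library, and the colour is log2(CPM + 0.5) minus the gene's mean over the 8 libraries. Cldn5 and Icam2 are lower in the 3 untreated libraries than in every AAV9-LMNA library, with Icam2 in untreated replicate 7 near its mean. Nr2f2 is highest in untreated replicate 8, and untreated replicate 6 is the lowest of the 8 libraries for 20 of the 39 genes.

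The split into genes that rose and fell moved with the scaling and with transcript length. Over 11492 coding genes, levels rose with transcript length in the untreated libraries and fell with it in the AAV9-LMNA libraries. Per doubling of transcript length, the log2 level relative to the mean of all libraries changed by 0.0766 to 0.171 in the 3 untreated libraries and by -0.102 to -0.0608 in the 5 AAV9-LMNA libraries. The median transcript of the 8 members that rose was 1865 bases long, that of the 6 that fell 7404 bases, and that of coding genes 3464 bases. After each library was corrected for transcript length and GC content, Cldn5 was the 1 member still called higher (background 2.28%) and Eng and Nr2f2 were the 2 still called lower (background 5.32%), and the median of all members was -0.04, beside a coding median of 0.00. With Ensembl genes scaled and tested without the NONCODE features, 3 members were higher (Cldn5, Icam2 and Sox18; background 4.49%) and 7 lower (the 6 above and Notch1; background 8.73%). The corrected fit was also made on Ensembl genes alone, so its values hold this rescaling as well as the length and GC offsets. Against the uncorrected fit, the median of the same Ensembl genes shifted by -0.19 with Ensembl genes alone and by -0.26 with the correction. Set against untreated replicate 7 alone, 8 members were higher (background 7.42%) and 4 lower (background 3.85%). The 8 held Clec14a and Fli1 in place of Icam2 and Sox18, and the 4 were Eng, Nr2f2, Notch1 and Lyve1.

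**Figure D2:**
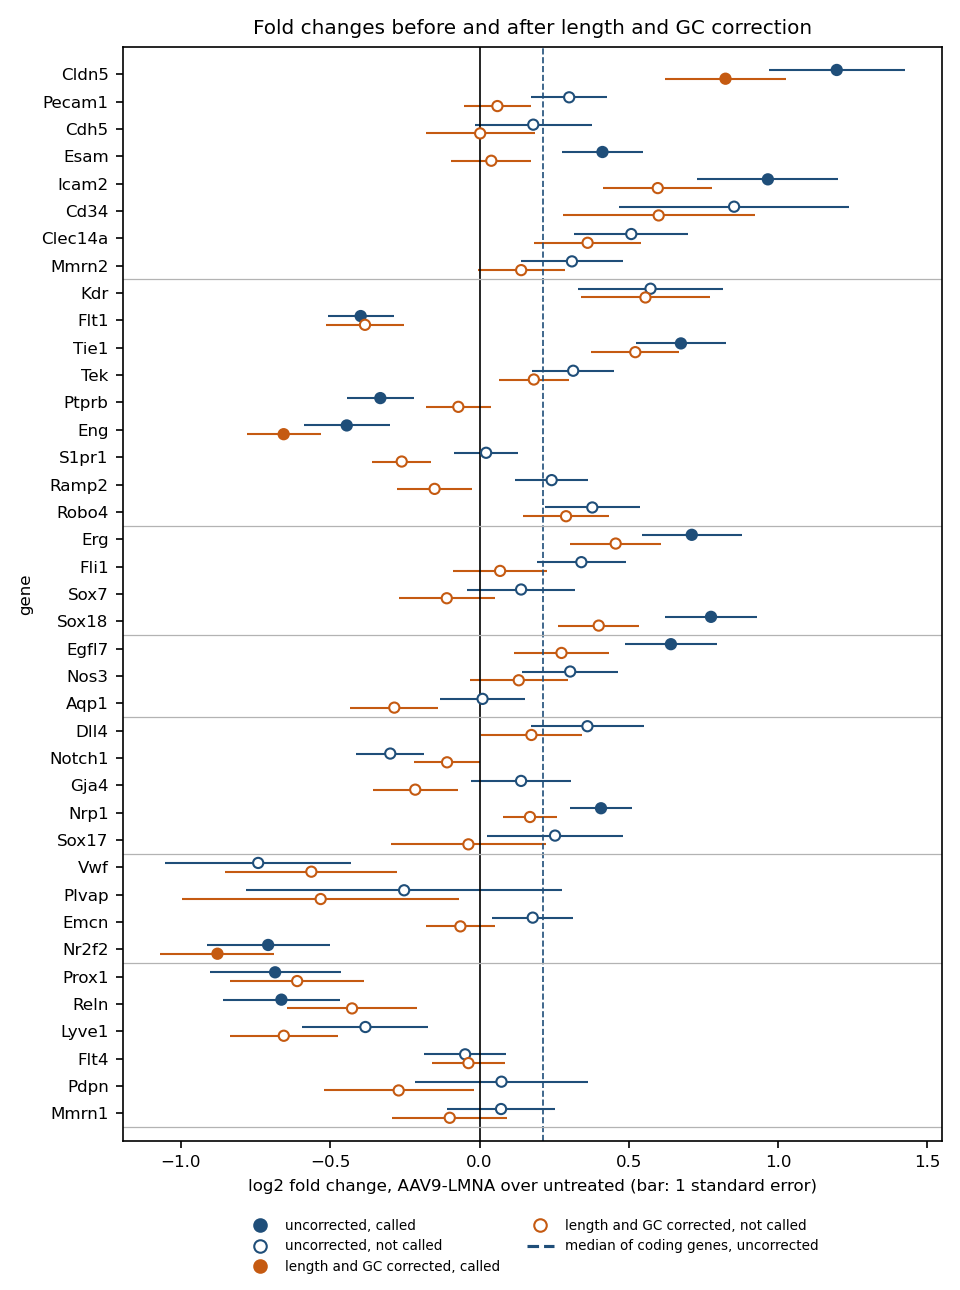
Log2 fold changes of the 39 genes with bars of 1 standard error, before (blue) and after (orange) the length and GC correction, with filled points for called genes and a dashed line at the coding median of 0.21. Before the correction 14 points are filled, and after it those of Cldn5, Eng and Nr2f2.

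Because these 3 genes were called both before and after the correction, the 250 bases before their RefSeq transcription starts are shown, from GRCm38.p6 and read 5′ to 3′ on the strand of the gene. Cldn5 lies on the plus strand, with its window at chr16:18776597-18776846. Eng lies on the plus strand, with its window at chr2:32646345-32646594. Nr2f2 lies on the minus strand, with its window at chr7:70366747-70366996. Capitals mark matches on either strand to AGGAAG, a short form of the site that ETS factors such as ERG and FLI1 bind. Both the genes shown and the motifs were chosen after the expression values were known.
Cldn5: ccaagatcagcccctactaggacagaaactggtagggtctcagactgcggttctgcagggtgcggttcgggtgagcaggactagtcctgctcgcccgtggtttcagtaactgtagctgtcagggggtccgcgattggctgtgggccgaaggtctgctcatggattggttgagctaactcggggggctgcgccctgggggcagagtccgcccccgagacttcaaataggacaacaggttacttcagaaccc
Eng: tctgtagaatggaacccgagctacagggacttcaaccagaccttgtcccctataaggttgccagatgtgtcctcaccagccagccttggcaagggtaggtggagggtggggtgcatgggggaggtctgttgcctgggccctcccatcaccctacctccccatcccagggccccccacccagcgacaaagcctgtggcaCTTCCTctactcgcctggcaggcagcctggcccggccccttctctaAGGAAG
Nr2f2: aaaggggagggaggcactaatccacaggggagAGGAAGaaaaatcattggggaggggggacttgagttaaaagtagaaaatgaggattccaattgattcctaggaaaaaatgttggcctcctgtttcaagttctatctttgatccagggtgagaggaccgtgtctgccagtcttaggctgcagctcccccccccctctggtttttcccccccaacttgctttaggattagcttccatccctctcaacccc
The Cldn5 window held no match, the Eng window 2 and the Nr2f2 window 1. None of the 3 windows held ACAAT, the core that SOX factors bind, on either strand, and neither motif contains the other. Among the 23 members with a promoter entry in the RefSeq table, 11 held AGGAAG (47.8%, against 32.3% of 27025 genes) and 9 held ACAAT (39.1%, against 30.9%). A match describes these letters only, and binding was not measured.

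The gene with the largest log2 fold change among the members called, Cldn5, is 1 of the junction and surface proteins. Of these 8 genes, 3 rose and 0 fell, with 5 and 0 at an unadjusted p under 0.05, and DESeq2 called 5 and 0 and limma-voom 4 and 0. Their median was 0.46 (coding genes 0.21), and it lay above the coding median under all 17 settings tried. Cldn5 (ENSMUSG00000041378, chr16:18776847-18778262), the claudin that seals endothelial tight junctions, was at 18.2, 27.6 and 42.3 CPM in untreated replicates 6, 7 and 8 and at 60.6, 71.8, 76.6, 64.2 and 63.2 CPM in AAV9-LMNA replicates 1 to 5. Every AAV9-LMNA library lay above every untreated one, and replicate 6 was lowest. The mean went from 29.4 ± 12.2 (SD, n = 3) to 67.3 ± 6.64 CPM (SD, n = 5), so the log2 fold change was 1.20 ± 0.23 (SE; 2.29-fold, edgeR adjusted p = 0.00702). It was 0.82 after the length and GC correction (edgeR adjusted p = 0.0389) and 1.30 against replicate 7 alone (edgeR adjusted p = 0.000155). Cldn5 was the only member called under all 17 settings.

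Icam2 (ENSMUSG00000001029, chr11:106377656-106388075), an adhesion molecule that binds leukocyte integrins, was at 9.60, 23.2 and 16.2 CPM untreated and at 26.6, 32.5, 35.9, 29.5 and 34.6 CPM with AAV9-LMNA. The groups did not overlap, and untreated replicate 7 came nearest to the AAV9-LMNA libraries. Its log2 fold change was 0.97 ± 0.24 (SE; edgeR adjusted p = 0.0167), and it was called without each single library, but against replicate 7 alone the value of 0.47 missed the threshold (edgeR adjusted p = 0.0891), and after the correction 0.60 (edgeR adjusted p = 0.0762). Esam (ENSMUSG00000001946, chr9:37528078-37538319), an immunoglobulin protein of tight junctions, was at 69.8, 67.1 and 89.2 CPM against 91.2, 109.5, 111.4, 81.1 and 108.3 CPM. Here AAV9-LMNA replicate 4 was inside the untreated range. The difference on the log2 scale of 0.41 ± 0.14 (SE; edgeR adjusted p = 0.0457) was not called when untreated replicate 6 or 7 or AAV9-LMNA replicate 1, 2, 3 or 5 was left out (0.35 to 0.56 over the 8 fits, largest edgeR adjusted p 0.112), and it was 0.04 after the correction and 0.59 against replicate 7 alone (edgeR adjusted p = 0.0499).

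The most used pan-endothelial markers were not called. Pecam1, the CD31 adhesion molecule of all endothelium, was at 219, 265 and 318 CPM untreated and at 322, 358, 343, 280 and 344 CPM with AAV9-LMNA. Its groups overlapped through untreated replicate 8 and AAV9-LMNA replicate 4, and its log2 fold change was 0.30 ± 0.13 (SE; edgeR adjusted p = 0.101). Cdh5, the cadherin of endothelial adherens junctions, was at 223, 267 and 429 CPM against 339, 407, 368, 278 and 345 CPM. The highest of the 8 values was in untreated replicate 8, and the log2 fold change was 0.18 ± 0.20 (SE; edgeR adjusted p = 0.51). Both were called higher when untreated replicate 8 was left out, Pecam1 at 0.45 (edgeR adjusted p = 0.0346) and Cdh5 at 0.51 (edgeR adjusted p = 0.0384), and Clec14a, Tek and Fli1 joined them, so that 13 members were then higher (33.3%, background 13.7%) and 2 lower (5.13%, background 4.55%). Against replicate 7 alone neither was called, with Pecam1 at 0.33 (edgeR adjusted p = 0.138) and Cdh5 at 0.39 (edgeR adjusted p = 0.169). Of the other surface genes, Cd34, a sialomucin of endothelium and progenitor cells, stood at 0.85 ± 0.39 on the log2 scale (SE; edgeR adjusted p = 0.133), with untreated replicate 6 lowest at 64.3 CPM. Without that library its value was 0.48 (edgeR adjusted p = 0.129), and DESeq2 called it higher over all 8 libraries (DESeq2 adjusted p = 0.039). Clec14a, a lectin of endothelial contacts, stood at 0.51 and its ligand Mmrn2, a matrix multimerin, at 0.31.

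**Figure D3:**
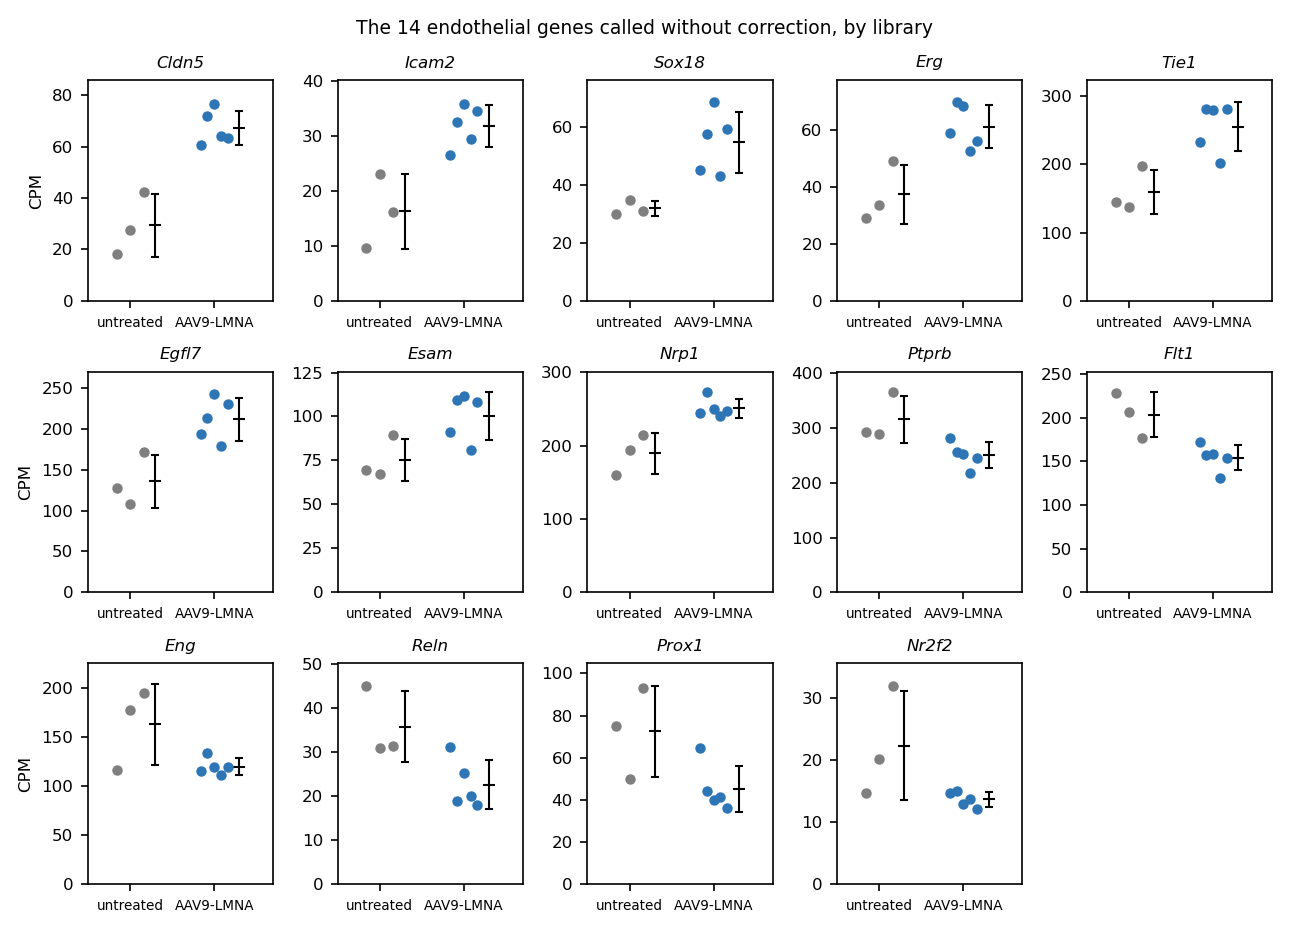
CPM of the 14 genes called without correction, each point a library (3 untreated in grey, 5 AAV9-LMNA in blue), with the group mean and bars of 1 SD. Cldn5, Icam2, Sox18, Erg, Tie1, Egfl7 and Nrp1 show AAV9-LMNA libraries above all untreated ones, Flt1 and Ptprb below all untreated ones, and the other 5 overlap.

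Receptors went in both directions. Among 9 receptor genes 1 rose and 3 fell, and their median was 0.24. Of these genes, DESeq2 called only Tie1 higher and Flt1 lower, and limma-voom Tie1 higher and Flt1 and Ptprb lower. Tie1 (ENSMUSG00000033191, chr4:118471191-118490061), the orphan partner of the angiopoietin receptor, was at 144, 138 and 197 CPM untreated and at 233, 280, 279, 202 and 281 CPM with AAV9-LMNA. The groups were separate, with AAV9-LMNA replicate 4 just above untreated replicate 8. Tie1 had a log2 fold change of 0.67 ± 0.15 (SE; 1.60-fold, edgeR adjusted p = 0.0111), 0.90 against replicate 7 alone (edgeR adjusted p = 0.0148) and 0.52 after the correction (edgeR adjusted p = 0.0600). Tek, the angiopoietin receptor itself, stood at 0.31 and was not called (edgeR adjusted p = 0.109), although it was at 0.47 without untreated replicate 8 (edgeR adjusted p = 0.0384).

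The VEGF receptors differed from each other. Flt1 (ENSMUSG00000029648, chr5:147561604-147726011), which binds VEGF-A tightly and signals weakly, was at 228, 206 and 176 CPM untreated and at 171.5, 157, 159, 131 and 154 CPM with AAV9-LMNA. All 5 AAV9-LMNA values lay below the untreated ones, and untreated replicate 6, lowest for most members, was highest here. Its log2 fold change was -0.40 ± 0.11 (SE; 0.759-fold, edgeR adjusted p = 0.0252). It was not called without untreated replicate 6 or AAV9-LMNA replicate 2 or 4 (-0.48 to -0.30 over the 8 fits, largest edgeR adjusted p 0.0847). With Ensembl genes alone Flt1 was at -0.60 and called (edgeR adjusted p = 0.0163). After the correction, made on the same Ensembl genes, it was at -0.38 and not called (edgeR adjusted p = 0.108). Nor was it called against replicate 7 alone (-0.40). Kdr, the main signalling receptor for VEGF-A, was at 111, 249 and 222 CPM against 229, 330, 305, 254 and 324 CPM. Untreated replicate 6 was far below the other 7 libraries, and the log2 fold change of 0.57 ± 0.24 (SE) was not called (edgeR adjusted p = 0.106) and became 0.30 without that library and 0.23 against replicate 7 alone (edgeR adjusted p = 0.512).

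Eng and Ptprb were the other receptor genes that fell. Eng (endoglin, ENSMUSG00000026814, chr2:32646595-32682669), a TGF-beta and BMP co-receptor, was at 117, 178 and 195 CPM untreated and at 115, 134, 120, 111 and 120 CPM with AAV9-LMNA. Untreated replicates 7 and 8 were above all AAV9-LMNA libraries, and replicate 6 was within their range. The mean went from 163 ± 41.2 (SD, n = 3) to 120 ± 8.40 CPM (SD, n = 5), a log2 fold change of -0.44 ± 0.14 (SE; edgeR adjusted p = 0.0436). That call held in 1 of the 8 fits that leave out a library, the fit without untreated replicate 6 (-0.63, edgeR adjusted p = 0.00196), and was lost without any of the other 7 (largest edgeR adjusted p 0.184). Over all 8 libraries, Eng was called neither by DESeq2 (DESeq2 adjusted p = 0.0559) nor by limma-voom. Eng was called again after the correction (-0.66, edgeR adjusted p = 0.0138) and against replicate 7 alone (-0.55, edgeR adjusted p = 0.00757). Ptprb (ENSMUSG00000020154, chr10:116275523-116389535), the phosphatase that restrains Tie receptors, was at 292, 289 and 366 CPM against 282, 257, 253, 217 and 245 CPM. The groups were separate by a small gap between untreated replicate 7 and AAV9-LMNA replicate 1. The log2 fold change of -0.33 ± 0.11 (SE; edgeR adjusted p = 0.0481) was not called without untreated replicate 8 or AAV9-LMNA replicate 2, 3, 4 or 5 (-0.38 to -0.21 over the 8 fits, largest edgeR adjusted p 0.201), and for this transcript of 11911 bases it was -0.07 after the correction. The value against replicate 7 alone, -0.19, missed the threshold (edgeR adjusted p = 0.365).

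The remaining receptor genes were not called. S1pr1, the sphingosine-1-phosphate receptor that stabilizes vessels, had a log2 fold change of 0.02, Ramp2, the partner of the adrenomedullin receptor, of 0.24, and Robo4, a roundabout receptor of endothelium, of 0.38. Of the exonic bases of Ramp2, 33.4% overlap those of Vps25 on the same strand, so its reads are uncertain.

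Of the 4 transcription factors, 2 rose and 0 fell (3 and 0 at an unadjusted p under 0.05, and 2 and 0 by both DESeq2 and limma-voom), and the median was 0.53. Erg (ENSMUSG00000040732, chr16:95359169-95586593), an ETS factor that maintains endothelial identity, was at 29.2, 33.6 and 49.1 CPM untreated and at 58.8, 69.5, 68.4, 52.6 and 55.8 CPM with AAV9-LMNA. The groups did not overlap. The difference was 0.71 ± 0.17 on the log2 scale (SE; 1.64-fold, edgeR adjusted p = 0.0136), 0.87 against replicate 7 alone (edgeR adjusted p = 0.00547) and 0.46 after the correction (edgeR adjusted p = 0.0981). Sox18 (ENSMUSG00000046470, chr2:181669836-181671640), which acts in vessel and early lymphatic development, was at 29.9, 34.8 and 30.9 CPM against 45.0, 57.4, 68.5, 42.9 and 59.1 CPM. Its untreated libraries were close together, all below the AAV9-LMNA libraries. Sox18 had a log2 fold change of 0.78 ± 0.16 (SE; 1.71-fold, edgeR adjusted p = 0.00731), 0.40 after the correction (edgeR adjusted p = 0.102) and 0.66 but not called against replicate 7 alone (edgeR adjusted p = 0.175). Fli1, an ETS factor related to Erg, stood at 0.34 (0.55 and called without untreated replicate 8, edgeR adjusted p = 0.0237), and Sox7, a relative of Sox18, at 0.14.

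Of the secreted protein, enzyme and channel, 1 gene rose. Egfl7 (ENSMUSG00000026921, chr2:26580014-26593120), a secreted endothelial protein whose gene hosts miR-126, was at 128, 108 and 172 CPM untreated and at 193, 213, 243, 179 and 231 CPM with AAV9-LMNA. The groups were separate, and AAV9-LMNA replicate 4 came nearest to untreated replicate 8. On the log2 scale the difference was 0.64 ± 0.15 (SE; 1.56-fold, edgeR adjusted p = 0.0145), 0.99 against replicate 7 alone (edgeR adjusted p = 0.00289) and 0.27 after the correction (edgeR adjusted p = 0.31). Reads were counted without strand, and 11.2% of Egfl7 exonic bases overlap other genes, among them Agpat2. Nos3, the endothelial nitric oxide synthase, stood at 0.30, with 32.3% of its exonic bases shared with Atg9b and Gm15587 on the other strand. Aqp1, a water channel of capillaries, stood at 0.01. It had the highest level of the 39 genes per length in both groups, at 210.3 CPM per kilobase of transcript untreated and 212 with AAV9-LMNA.

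Of 5 arterial genes 1 rose and 0 fell (1 and 1 at an unadjusted p under 0.05, and 1 and 0 by both DESeq2 and limma-voom), and their median of 0.25 was close to the coding median of 0.21. Nrp1 (ENSMUSG00000025810, chr8:128358604-128503363), the neuropilin co-receptor for VEGF-A and semaphorins, was at 160, 194 and 214 CPM untreated and at 244, 273, 250.2, 241 and 247 CPM with AAV9-LMNA. The groups did not overlap, and the AAV9-LMNA libraries were within a narrow range. On the log2 scale the difference was 0.41 ± 0.11 (SE; 1.33-fold, edgeR adjusted p = 0.0191), not called without AAV9-LMNA replicate 2 (largest edgeR adjusted p of the 8 fits, 0.052), and 0.17 after the correction (edgeR adjusted p = 0.27). Against replicate 7 alone it was 0.38 (edgeR adjusted p = 0.0469). Notch1, the Notch receptor of arterial endothelium and endocardium, was at 107, 138 and 126 CPM against 97.8, 106, 104, 84.5 and 112 CPM. Untreated replicate 6 lay inside the AAV9-LMNA range, and the log2 fold change of -0.30 ± 0.11 (SE) was not called (edgeR adjusted p = 0.0724). It was called lower with Ensembl genes alone (-0.49, edgeR adjusted p = 0.0126), without untreated replicate 6 (-0.38, edgeR adjusted p = 0.0341) and against replicate 7 alone (-0.44, edgeR adjusted p = 0.0483), and it was -0.11 after the correction.

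The other 3 arterial genes overlapped between groups. Dll4, the Notch ligand of tip cells and arteries, was at 15.7, 23.4 and 25.9 CPM untreated and at 24.7, 32.1, 29.3, 20.6 and 32.3 CPM with AAV9-LMNA (log2 fold change 0.36 ± 0.19, SE). Gja4, the gap junction protein connexin 37, was at 15.1, 21.3 and 25.9 CPM against 21.8, 26.4, 23.6, 19.4 and 23.0 CPM (0.14 ± 0.17, SE). Sox17, a SOX factor of arterial fate, was at 30.8, 20.1 and 15.1 CPM against 23.0, 24.4, 36.1, 23.2 and 24.4 CPM (0.25 ± 0.23, SE). Dll4 and Gja4 were lowest in untreated replicate 6, while Sox17 was there at its highest untreated level. A Gm37587 transcript on the other strand covers 16.8% of Sox17 exonic bases.

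Of 4 endocardial and venous genes, 0 were called higher (0 at an unadjusted p under 0.05, and 0 by DESeq2 and limma-voom) and 1 was called lower, Nr2f2, whose call was lost without untreated replicate 8. Their median was -0.48, with values from -0.74 for Vwf to 0.18 for Emcn, and it lay below the coding median under all 17 settings. Nr2f2 (COUP-TFII, ENSMUSG00000030551, chr7:70351944-70366735), a transcription factor of venous fate, was at 14.8, 20.3 and 32.0 CPM untreated and at 14.67, 15.005, 12.90, 13.74 and 12.05 CPM with AAV9-LMNA. Untreated replicates 7 and 8 were above all AAV9-LMNA libraries, and replicate 6 was level with the upper ones. The mean went from 22.4 ± 8.83 (SD, n = 3) to 13.7 ± 1.23 CPM (SD, n = 5), a log2 fold change of -0.71 ± 0.21 (SE; 0.612-fold, edgeR adjusted p = 0.0295), and -0.88 after the correction (edgeR adjusted p = 0.0241). DESeq2 also called Nr2f2 lower (DESeq2 adjusted p = 0.0183), and limma-voom did not.

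Atrial muscle cells also express Nr2f2, and the atrial markers Myl7, Myl4, Sln and Bmp10 were, like it, highest in untreated replicate 8. The part of atrial muscle in the Nr2f2 values was not tested. Myl7, an atrial myosin light chain, was at 4.51, 1.71 and 308 CPM in untreated replicates 6, 7 and 8 and at most at 0.796 CPM in AAV9-LMNA libraries. Sln, the atrial sarcolipin, was at 0.902, 0.128 and 56.2 CPM, and at 0 in AAV9-LMNA replicates 1, 2, 3 and 5. The heart muscle marker Myl2 ran from 5347 CPM in untreated replicate 6 to 8808 CPM in AAV9-LMNA replicate 1. How much atrial tissue each library held was not tested. Of the 5 atrial markers, 4 passed the filter and 3 (Myl7, Myl4 and Bmp10) were called lower, against 6.07% of coding genes. Without untreated replicate 8, Myl7 (log2 fold change -2.80, edgeR adjusted p = 0.00680) and Bmp10 (-5.45, edgeR adjusted p = 0.00289) were still called. Myl4 then was not (-0.73, edgeR adjusted p = 0.0767). All 3 calls were also lost without certain single AAV9-LMNA libraries, and DESeq2 gave these genes no adjusted p. The other marker tested, Nppa, was highest in AAV9-LMNA replicate 1, at 174 CPM against 132 CPM in untreated replicate 8. Its log2 fold change was 0.15 and not called. Without untreated replicate 8 the log2 fold change of Nr2f2 was -0.35 and not called (edgeR adjusted p = 0.142), as it was not without AAV9-LMNA replicate 3, 4 or 5. Against replicate 7 alone it was -0.55 and called (edgeR adjusted p = 0.0461).

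Vwf, the clotting factor stored in endothelial granules, was at 164, 371 and 388 CPM untreated and at 246, 184, 108, 190.2 and 192 CPM with AAV9-LMNA. Untreated replicates 7 and 8 were above all other libraries, and replicate 6 was among the low ones. The log2 fold change of -0.74 ± 0.31 (SE) was not called (edgeR adjusted p = 0.109) and was -1.03 and called without replicate 6 (edgeR adjusted p = 0.0376), but -0.999 and not called against replicate 7 alone (edgeR adjusted p = 0.237). Megakaryocytes also make Vwf. The sum of 5 platelet markers was 4.59 to 18.3 CPM in untreated and 14.9 to 19.9 CPM in AAV9-LMNA libraries. Of these 5 markers, 0 were called by edgeR, DESeq2 or limma-voom (1 higher and 0 lower at an unadjusted p under 0.05 in edgeR). Their part in the Vwf values was not tested. Plvap, the diaphragm protein of fenestrated and endocardial endothelium, was at 7.46, 50.2 and 22.0 CPM against 27.4, 28.4, 12.4, 22.5 and 20.7 CPM. Its untreated libraries spanned all the others, and the log2 fold change was -0.25 ± 0.53 (SE), or 0.61 without untreated replicate 7 (edgeR adjusted p = 0.351). Emcn, the sialomucin endomucin of veins, capillaries and endocardium, was at 49.7, 67.2 and 70.9 CPM against 61.3, 76.4, 69.9, 64.4 and 82.1 CPM, with overlapping groups and a log2 fold change of 0.18 ± 0.14 (SE).

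Lymphatic genes held 0 called higher (0 at an unadjusted p under 0.05, and 0 by DESeq2 and limma-voom) and 2 called lower of 6, with a median of -0.22. The sign of that median turned on 1 library, since it was 0.0433 without untreated replicate 7, while it lay below the coding median under all 17 settings. Prox1 (ENSMUSG00000010175, chr1:190118035-190170714), the factor that specifies lymphatic endothelium, was at 75.0, 49.8 and 92.9 CPM untreated and at 64.4, 44.0, 39.7, 41.4 and 36.2 CPM with AAV9-LMNA. AAV9-LMNA replicate 1 lay inside the untreated range, and the other 4 below it. The log2 fold change was -0.68 ± 0.22 (SE; 0.622-fold, edgeR adjusted p = 0.0449). It was not called without untreated replicate 6 or 8 or AAV9-LMNA replicate 2, 3, 4 or 5 (-0.88 to -0.46 over the 8 fits, largest edgeR adjusted p 0.172), nor after the correction (-0.61, edgeR adjusted p = 0.129), and against replicate 7 alone it was -0.13. Heart muscle cells also express Prox1. The sum of 8 heart muscle markers was 72827, 47369 and 63212 CPM in untreated replicates 6, 7 and 8, in which Prox1 was also lowest in replicate 7, and 58267 to 70489 CPM with AAV9-LMNA, and its part in the Prox1 result was not tested.

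Reln (ENSMUSG00000042453, chr5:21884454-22344702), a secreted glycoprotein of lymphatic endothelium, was at 45.1, 30.9 and 31.3 CPM untreated and at 31.1, 18.8, 25.2, 20.1 and 17.8 CPM with AAV9-LMNA. Untreated replicate 6 was highest, and AAV9-LMNA replicate 1 came up to replicates 7 and 8. The log2 fold change of -0.66 ± 0.20 (SE; 0.631-fold, edgeR adjusted p = 0.0315) was not called without untreated replicate 6 or AAV9-LMNA replicate 2, 3, 4 or 5 (-0.81 to -0.45 over the 8 fits, largest edgeR adjusted p 0.141), and it was -0.43 after the correction for a transcript of 11699 bases. Nor did -0.44 against replicate 7 alone pass the threshold (edgeR adjusted p = 0.408).

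The surface receptors of lymphatic endothelium were not called. Lyve1, the hyaluronan receptor, was at 18.8, 38.9 and 22.5 CPM untreated and at 16.8, 20.2, 23.0, 23.1 and 19.5 CPM with AAV9-LMNA. Untreated replicate 7 was far above the rest, and replicates 6 and 8 were inside the AAV9-LMNA range. The log2 fold change was -0.38 ± 0.21 (SE; edgeR adjusted p = 0.194), and -0.91 and called against replicate 7 alone (edgeR adjusted p = 0.00344). Resident macrophages also express Lyve1, and the sum of 8 macrophage markers was 172, 646 and 290 CPM in untreated replicates 6, 7 and 8 and 528 to 599 CPM with AAV9-LMNA, highest where Lyve1 was highest. Their part in the Lyve1 values was not tested.

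Flt4, the receptor for VEGF-C, was at 27.1, 40.7 and 32.7 CPM against 32.3, 30.1, 37.1, 28.9 and 33.6 CPM (log2 fold change -0.05 ± 0.14, SE). Pdpn, the sialoglycoprotein podoplanin, was at 3.24, 9.38 and 8.58 CPM against 6.91, 8.94, 6.83, 7.77 and 6.66 CPM (0.07 ± 0.29, SE), or -0.26 without untreated replicate 6 (edgeR adjusted p = 0.291). Mmrn1, a multimerin of lymphatic endothelium and platelets, was at 21.0, 20.5 and 20.5 CPM against 29.6, 15.4, 23.4, 21.4 and 18.8 CPM (0.07 ± 0.18, SE). For Flt4 and Pdpn untreated replicate 6 was the lowest library and replicate 7 the highest, and for Mmrn1 the untreated libraries lay inside the AAV9-LMNA range. Per kilobase of transcript, the 6 lymphatic genes were at 3.06 to 9.24 CPM untreated and 1.93 to 7.09 CPM with AAV9-LMNA, below Pecam1 at 77.8 and 95.8 CPM.

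Side by side, the 24 pan-endothelial genes had 7 higher and 3 lower with a median of 0.33, the 5 arterial genes 1 and 0 with 0.25, the 4 endocardial and venous genes 0 and 1 with -0.48, and the 6 lymphatic genes 0 and 2 with -0.22. The background was 18.4% of coding genes higher and 6.07% lower. After the length and GC correction the medians were 0.14, -0.04, -0.55 and -0.35 in the same order, beside 0.00 for coding genes. The pan-endothelial median was above, and the endocardial and venous and lymphatic medians below, the coding median under all 17 settings, while the arterial median lay above it under 14 and below it under 3. Differences between these groups of genes were described and not tested.

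**Figure D4:**
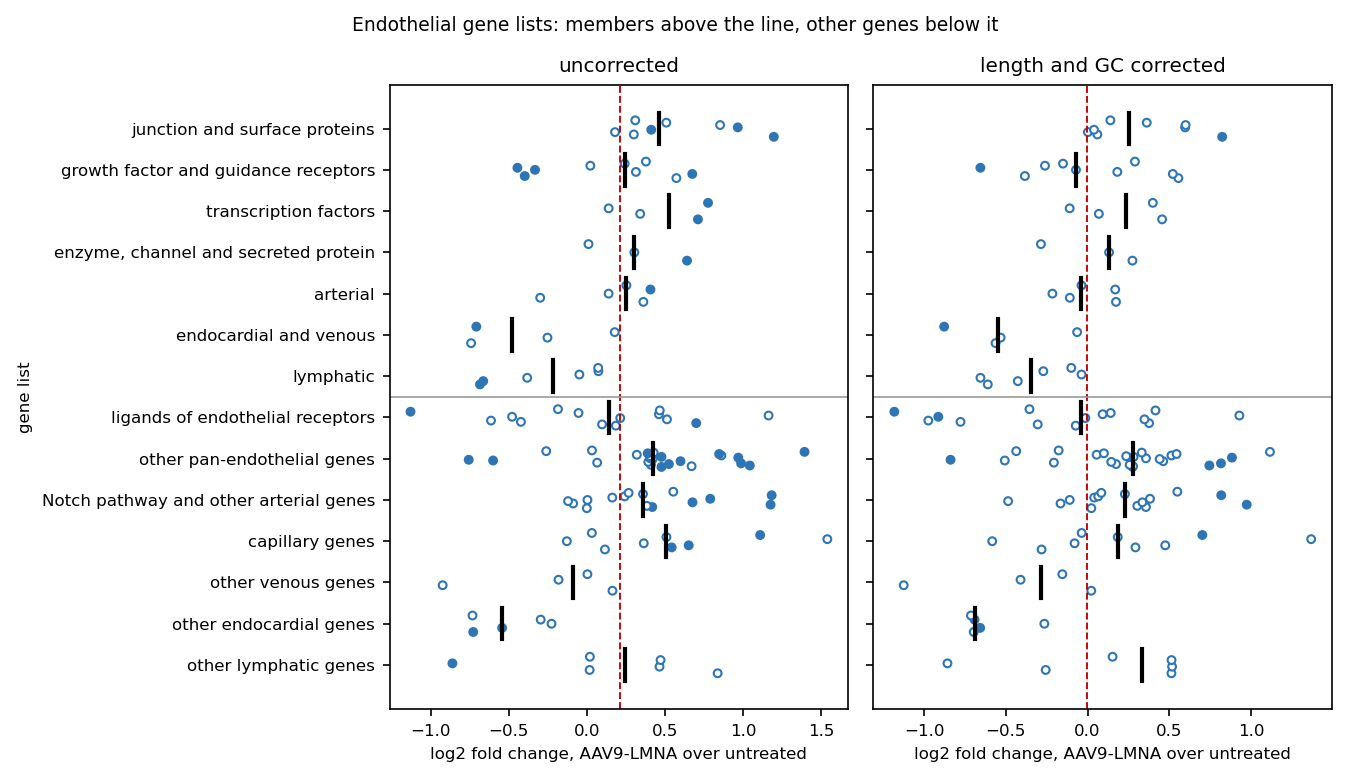
Log2 fold changes of single genes (circles, filled when called) by list, before (left) and after (right) the length and GC correction, with a black bar at each list's median and a dashed line at the coding median. The endocardial and venous list has a median of -0.48 on the left and -0.55 on the right, and the junction list one of 0.46 and 0.25.

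Other endothelial genes, from lists chosen for their known roles, were set beside the members. For each list the background was 18.4% of coding genes higher and 6.07% lower. Of 24 further pan-endothelial genes, 11 rose and 2 fell, with a median of 0.42. Ushbp1, an endothelial protein that binds the Usher protein harmonin, rose by 0.99 ± 0.12 on the log2 scale (SE; edgeR adjusted p = 0.00103), Myct1, an endothelial membrane protein, by 1.04 and the ETS factor Ets2 by 0.48, while Cyyr1 fell by 0.76. Ushbp1, Myct1 and Cyyr1 were called after the correction too, at 0.82, 0.75 and -0.84. Of 15 further Notch pathway and arterial genes, 5 rose and 0 fell (0 lower at an unadjusted p under 0.05, and 0 by DESeq2 and limma-voom), with a median of 0.36. The Notch ligand Dll1 rose by 1.18, the chemokine receptor Cxcr4 by 1.18 and the Notch target genes Hes1 and Hey1 by 0.79 and 0.68, and of these Dll1 and Cxcr4 were called after the correction, at 0.97 and 0.82, but not against replicate 7 alone, at 0.86 and 0.84 (edgeR adjusted p = 0.106 and 0.0634). An antisense gene on the other strand covers 20.5% of Dll1 exonic bases.

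Of 5 further endocardial genes tested, 0 rose (0 at an unadjusted p under 0.05, and 0 by DESeq2 and limma-voom) and 2 fell, with a median of -0.54. Nfatc1, the calcineurin-dependent factor of endocardium and valves, was at 32.6, 36.3 and 32.5 CPM untreated and at 25.5, 22.1, 24.7, 22.6 and 21.1 CPM with AAV9-LMNA. The groups did not overlap, its log2 fold change was -0.54 ± 0.10 (SE; edgeR adjusted p = 0.00599), and it was called in all 8 fits that leave out a library and after the correction (-0.66, edgeR adjusted p = 0.00416). Npr3, the natriuretic peptide clearance receptor of endocardium, fell by 0.73 (edgeR adjusted p = 0.0337) and was not called after the correction (-0.70, edgeR adjusted p = 0.0594) or without untreated replicate 7 or 8 or AAV9-LMNA replicate 3, 4 or 5 (-0.95 to -0.53 over the 8 fits, largest edgeR adjusted p 0.127).

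Of 4 further venous genes tested, 0 were called, with 0 at an unadjusted p under 0.05 in edgeR and 0 called by DESeq2 and limma-voom. The smallest p-values were those of Ephb4, the ephrin receptor of veins, at 0.16, and Selp, P-selectin, at -0.92. Of 6 further lymphatic genes, 0 rose and 1 fell in edgeR, with 1 each way at an unadjusted p under 0.05, and DESeq2 and limma-voom called 0 higher. The median of this further list lay above the coding median under 14 of 17 settings and below it under 3. That of the lymphatic members lay below it under all 17. Ccbe1, which promotes processing of VEGF-C, fell by 0.86 (edgeR adjusted p = 0.0405), but not without untreated replicate 6 or 8 or AAV9-LMNA replicate 1, 2, 3 or 4 (-1.11 to -0.46 over the 8 fits, largest edgeR adjusted p 0.218). Of 14 ligands of endothelial receptors, 1 rose and 1 fell. Vegfc, the ligand of Flt4, rose by 0.70 (edgeR adjusted p = 0.033) and was not called without untreated replicate 6 or AAV9-LMNA replicate 3, 4 or 5 (0.51 to 0.93 over the 8 fits, largest edgeR adjusted p 0.0798). Slit3, a guidance ligand of Robo receptors, fell by 1.13 (edgeR adjusted p = 0.0334) and was not called without untreated replicate 6 or 8 or AAV9-LMNA replicate 2, 3, 4 or 5 (-1.38 to -0.66 over the 8 fits, largest edgeR adjusted p 0.11).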

How the data were processed

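The authors deposited 1 table of raw counts per library, whole numbers of reads per Ensembl or NONCODE gene with no normalization, counted without strand per the deposited tables. TopHat2, HTSeq, edgeR, limma and the builds GRCm38 and mm10 are named, without versions or roles, in the submitters' processing notes. The 5 summary lines of each table entered neither library sizes nor tests. Between 21439956 and 26492443 reads per library fell on features, and ambiguous reads made up 21.0 to 26.4% of reads on features, outside them or ambiguous. Reads outside every feature, in the same denominator, made up 16.8 to 24.7% in untreated and 12.1 to 12.8% in AAV9-LMNA libraries. Of 53465 Ensembl identifiers 53274 matched GENCODE M21.

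Counts were filtered with filterByExpr, scaled by TMM over Ensembl and NONCODE features together and tested with the robust quasi-likelihood test of edgeR 4.0.16 (R 4.3.3), with the group as the 1 model term, and p-values were adjusted by Benjamini-Hochberg over 26717 features at 0.05. CPM used TMM library sizes. The genes, role groups and other lists were chosen with earlier results of these data known, and no list was tested as a set. Values in every library were given for called members, for the arterial, endocardial, venous and lymphatic members and for Pecam1, Cdh5 and Kdr. Of each further list up to 4 called genes with the smallest p were named, or 2 genes where none was called. Capillary genes are with the other observations.

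The alternatives were DESeq2 1.42.0, limma-voom (limma 3.58.1), RLE size factors, no filter, at least 1 CPM in 3 libraries, Ensembl genes alone, loess offsets for transcript length and GC content (span 0.5), each library left out, and a fit without untreated replicates 6 and 8. The loess offsets were applied to Ensembl genes alone, scaled without the NONCODE features. The fit was tested on simulated counts for 25795 features of this comparison. It recovered 79.4% of 63 genes changed 4-fold, 30.2% of 63 changed 2-fold and 3.03% of 66 changed 1.5-fold, with 2 false among 73 calls. The simulated counts held far fewer changed features than the 6858 called in the data. They also held no trend with transcript length, so these rates may not hold for the data. Promoter sequences came from RefSeq (GRCm38.p6), which held an entry for 23 of the 39 members.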

Additional observations from a re-analysis of the deposited data

Results flagged for a closer look

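Each of 58 named genes was checked for an AAV9-LMNA library that stood far from the other 4 (Dixon's criterion at 95%), and 4 genes had one. Chance marks about 1 in 20 such groups. S1pr1, the sphingosine-1-phosphate receptor, was at 150 CPM in AAV9-LMNA replicate 4, below the next value of 184.5 CPM. Sox17 was at 36.1 CPM in AAV9-LMNA replicate 3, above the next value of 24.4 CPM. Prox1 was at 64.4 CPM in AAV9-LMNA replicate 1, above the next value of 44.0 CPM, and Slit3 at 27.8 CPM in the same library, above 15.7 CPM. AAV9-LMNA replicate 4 was the lowest of its group for 23 of the 39 members.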

How the results depend on the processing

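Cldn5 was called higher under all 17 settings, Icam2, Tie1, Erg, Sox18 and Egfl7 under 15, and Nrp1 under 14. Among genes that fell, Flt1 and Nr2f2 were called under 12, Reln under 10, Prox1 and Ptprb under 8 and Eng under 7. Against 8 higher and 6 lower members, 15 were higher without a filter (38.5% of members, against 17.9% of coding genes), 3 with Ensembl genes alone (7.69% against 4.49%) and 1 after the length and GC correction (2.56% against 2.28%), and 3 were lower with RLE scaling (7.69% against 5.56%) and 2 after the correction (5.13% against 5.32%). Leaving out each library gave 6 to 13 higher and 0 to 5 lower, while 10 to 29.9% of coding genes were called higher and 4.24 to 7.68% lower. The lower count was 2 without untreated replicate 8, 1 without AAV9-LMNA replicate 2, 3 or 5, and 0 without AAV9-LMNA replicate 4 in edgeR (7 at an unadjusted p under 0.05), where all 8 libraries gave 4 with DESeq2 and 4 with limma-voom. In all, 6858 features were called, 1967 with Ensembl genes alone, 1182 after the correction, 2143 without untreated replicates 6 and 8, and 4216 to 10033 with 1 library left out. Ensembl genes alone and the correction shifted the median of the same Ensembl genes by -0.19 and -0.26. The split of calls was 2843 higher and 4015 lower, 326 and 856 after the correction, and 1139 and 1004 without replicates 6 and 8. With Ensembl genes alone and after the correction, the median of the members was 0.0314 and -0.0370, of the receptors 0.0425 and -0.0710 and of the arterial genes 0.0314 and -0.0372. The transcription factor median was 0.23 after the correction, and with Ensembl genes alone the enzyme, channel and secreted protein median was 0.10 and the lymphatic one -0.40, and that one ran from -0.36 to 0.0433 with 1 library left out, highest without untreated replicate 7. The cause of these changes was not tested. Over single genes and alternatives, 111 of 927 values lost the call, 25 gained one and 791 kept their side of the threshold. Of these 791, 38 had the other sign, for 14 genes, among them 13 members such as Plvap, S1pr1 and Pdpn. These were called neither under that setting nor in the uncorrected edgeR fit of all 8 libraries. Some of them, such as Cdh5 and Lyve1, were called under another setting. No value that was called changed sign. No paired analysis was possible because the groups share no replicate number. The lowest count of a member in any library was 79, for Pdpn.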

Other observations

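Capillary endothelium takes up fatty acids for heart muscle, and genes of that role were set beside the members. Of 9 capillary genes 3 rose and 0 fell in edgeR (5 and 0 at an unadjusted p under 0.05, 5 and 0 called by DESeq2 and 3 and 0 by limma-voom), with a median of 0.51. The share of coding genes called higher was 18.4% in edgeR, 24.9% in DESeq2 and 19.6% in limma-voom. Cd36, the fatty acid translocase that heart muscle also makes, was at 1354, 1573 and 1904 CPM untreated and at 2556, 2329, 2470.0, 2255 and 2118 CPM with AAV9-LMNA. Every AAV9-LMNA library lay above the untreated ones, and the log2 fold change was 0.54 (edgeR adjusted p = 0.0105), or 0.29 after correcting for length and GC content, which was not called. Fabp4, a fatty acid binding protein, rose by 0.65 (0.48 and not called after the correction). Tcf15, a transcription factor of capillary endothelium, rose by 1.11 and was called after the correction too (0.70, edgeR adjusted p = 0.0111).

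Both genes of this paragraph were chosen after their values were seen. Aplnr, the apelin receptor of sprouting and capillary endothelium, was at 11.8, 77.5 and 89.7 CPM untreated and at 123, 209, 191, 150 and 193 CPM with AAV9-LMNA. The groups did not overlap, but with untreated replicate 6 far below the other 7 libraries its log2 fold change of 1.54 was not called (edgeR adjusted p = 0.0908), and it was 1.06 and called without that library (edgeR adjusted p = 0.00986). Adgrf5, an adhesion receptor of endothelium, ran the other way in that library, at 893 CPM in untreated replicate 6 against 471 and 643 CPM in replicates 7 and 8 and 350 to 494 CPM with AAV9-LMNA, and fell by 0.60 (edgeR adjusted p = 0.0337). That call was lost without untreated replicate 6 (-0.32, edgeR adjusted p = 0.137) or 8 or AAV9-LMNA replicate 2, 3, 4 or 5, and after the correction (-0.51, edgeR adjusted p = 0.175). Against untreated replicate 7 alone the value was -0.08 (edgeR adjusted p = 0.788).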
